A study of Mus musculus with 32 samples.

Results

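B cells are defined by a small set of genes that other blood cells mostly keep closed. Pax5 and Ebf1 encode the transcription factors that commit a progenitor to the B lineage and hold it there, and Pou2af1 encodes the coactivator OCA-B, which works with octamer-binding factors. Cd79a and Cd79b encode the signalling chains of the B cell receptor, Ms4a1 encodes CD20, Cd22 encodes an inhibitory lectin of the receptor, Blk encodes a Src family kinase, and Bank1 encodes a scaffold protein with ankyrin repeats. Dendritic cells (DC) present antigen to T cells and are not known as a site of this programme, although several of these proteins, Cd22 and Bank1 among them, are also known from DC. In assay for transposase-accessible chromatin (ATAC-seq), a transposase cuts open chromatin, and a peak marks a stretch that was cut more than its surroundings.

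These 9 genes were followed through 32 peak lists from DC of mouse skin-draining lymph nodes. The genes were chosen on peak calls of the same libraries, those in DN migDC against the other cell types, so every difference between cell types given here is a description without a test. Peaks counted for a gene when they lay inside its body or, if intergenic, when one of its ends was the nearest gene end and lay within 50 kb. Peaks were merged into regions, each at least 100 bp long and under a peak in 3 or more libraries, and the 9 genes held 57 of 90465 regions. Of 1786289 peaks in the 32 lists, 758 counted for these genes, and not every peak lies in a region. Of these 57 regions 39 lay in gene bodies and 18 were intergenic. The farthest intergenic region inside the distance limit lay 23758 bp from Bank1 and was called in 2 of 6 DN migDC libraries, and the nearest one outside lay 58677 bp from Ebf1 and was called in 1 of 6.

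The study asked whether signalling through the interferon-γ receptor chain Ifngr1 shapes the chromatin of DC subsets. Lymph-node-resident cDC1 and cDC2 and the migratory subsets migDC1, migDC2 and DN migDC (double negative, named in the labels for CD11b and CD103) were sorted from mice that all carried floxed Ifngr1 alleles (IFNgr1flfl). Mice either lacked Cre driven by the CD11c promoter (CD11cCREneg, Ifngr1 present, here Cre-negative) or carried it (CD11cCREpos, labelled knockout, here Cre-positive). That promoter is active in DC but not in them alone. Each genotype had 3 libraries of cDC1, cDC2, migDC2 and DN migDC and 2 of migDC1, which makes 28 libraries. A further 4 migDC2 libraries, 2 of wild-type and 2 of germline IFNgr1-/- mice, were looked up and not tested. Ages are not in the labels. The labels do not say that replicates came from separate animals, so p-values measure only how far these samples spread, and part of that may be technical.

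Titles of the floxed libraries come in 2 series, plain numbers and a letter with a number, and the labels do not say what the series stand for. All resident libraries have plain titles and all migDC1 libraries lettered ones, so for these subsets cell type and title series cannot be told apart. Of DN migDC and of migDC2, 2 libraries each (Cre-negative 1 and Cre-positive 1) have plain titles and 4 have lettered ones. Lists of the 28 floxed libraries held 38455 to 74975 peaks and those of the germline libraries 32649 to 42446. Sequencing depth is not in the lists, so closed chromatin and chromatin whose signal missed the cutoff of a list look the same. In a bulk library, a peak carried by few cells and a peak weak in all cells cannot be told apart. The label of DN migDC was checked at 8 genes of mature migratory DC, where its libraries had 57 to 68 of 80 regions called. Floxed migDC2 libraries had 62 to 72, migDC1 libraries 40 to 55 and resident libraries 30 to 45. The list thus does not tell DN migDC from migDC2, and migDC1 overlapped with the resident libraries. Ranges overlapped at the genes of the sort markers too: Itgam, which encodes CD11b, had 7 to 13 of 21 regions called in DN migDC and 7 to 11 in floxed migDC2, and Itgae, which encodes CD103, had 5 to 10 of 12 in DN migDC and 6 to 8 in migDC1. Within the list of mature DC genes, Fscn1, the actin bundler of mature DC, had 6 or 7 of 7 regions in DN migDC and 3 to 5 in resident libraries. Not every gene of the list set them apart. Socs2 had 5 to 9 of 10 regions in DN migDC, 5 or 6 in cDC1 and 4 or 5 in cDC2, and Il4i1 had its 1 region called in every library.

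The starts of 4 members lie inside a region, and their sequences are shown because a peak at the start of a B cell gene set libraries of the same cell type apart. Each sequence runs 5′ to 3′ from 250 bases before to 50 bases after the annotated start (RefSeq, GRCm38.p6, the assembly of mm10). Capitals mark matches to 1 of 4 motifs known from B cell promoters, searched on both strands: the EBF core CCCNNGGG, the octamer ATGCAAAT, the E box CAGGTG and the Ets motif AGGAAGT. The windows are Pax5 at chr4:44710645-44710944 (minus strand), Pou2af1 at chr9:51213440-51213739 (plus), Cd79a at chr7:24897247-24897546 (plus) and Bank1 at chr3:136326017-136326316 (minus).
Pax5: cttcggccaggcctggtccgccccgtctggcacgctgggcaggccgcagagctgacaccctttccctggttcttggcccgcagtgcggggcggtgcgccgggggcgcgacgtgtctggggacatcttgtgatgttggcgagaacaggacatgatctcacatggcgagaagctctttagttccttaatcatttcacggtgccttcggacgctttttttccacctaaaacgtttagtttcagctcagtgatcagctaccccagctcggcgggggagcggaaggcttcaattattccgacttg
Pou2af1: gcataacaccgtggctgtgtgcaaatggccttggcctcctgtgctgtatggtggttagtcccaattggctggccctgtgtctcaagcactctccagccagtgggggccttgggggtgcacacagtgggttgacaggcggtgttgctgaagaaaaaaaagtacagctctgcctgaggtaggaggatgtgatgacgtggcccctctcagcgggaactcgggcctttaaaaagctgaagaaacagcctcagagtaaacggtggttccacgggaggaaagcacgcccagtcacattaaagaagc
Cd79a: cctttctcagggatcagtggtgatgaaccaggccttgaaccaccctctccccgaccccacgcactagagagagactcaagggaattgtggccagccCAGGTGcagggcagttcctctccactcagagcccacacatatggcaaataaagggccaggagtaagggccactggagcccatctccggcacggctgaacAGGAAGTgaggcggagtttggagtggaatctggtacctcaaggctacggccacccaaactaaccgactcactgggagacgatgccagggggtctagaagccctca
Bank1: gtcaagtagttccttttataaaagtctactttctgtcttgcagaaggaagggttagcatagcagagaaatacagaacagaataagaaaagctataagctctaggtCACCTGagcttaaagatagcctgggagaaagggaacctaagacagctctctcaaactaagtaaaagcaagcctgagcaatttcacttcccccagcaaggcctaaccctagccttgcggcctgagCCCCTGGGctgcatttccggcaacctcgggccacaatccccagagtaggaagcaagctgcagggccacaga

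Promoter sequences were found for 6 of the 9 members. The Cd79a window held an E box at position -154 and an Ets motif at -55, counted in bases from the start. The Bank1 window held an EBF core at -21 and an E box at -145. The Cd22 window, which is under no region and is not shown, held an EBF core at -48 and an E box at -245. Each position is that of the first base of the match in the direction of the gene. None of the 4 motifs was in the windows of Pax5, Pou2af1 or Ebf1, which says only that these letters are not there. Over 32851 promoter windows of the same length, 13.7% held an EBF core, 1.74% an octamer, 20.2% an E box and 9.35% an Ets motif.

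DN migDC held more of the 57 regions than any other subset. The 6 libraries had 42, 43, 24, 39, 36 and 32 regions called (in the order Cre-negative 1, Cre-positive 1, Cre-negative 2, Cre-positive 2, Cre-negative 3, Cre-positive 3), a mean of 36.0 ± 7.13 (SD, n = 6). In migDC2 the same order gave 35, 27, 18, 11, 29 and 20, a mean of 23.33 ± 8.64 (n = 6). The groups overlapped: DN migDC Cre-negative 2, with 24 regions, lay under 3 of the migDC2 libraries. The other subsets had means of 22.5 ± 5.45 (migDC1, n = 4), 22.33 ± 3.83 (cDC1, n = 6) and 15 ± 5.06 (cDC2, n = 6), and the highest single library among them had 27. Germline migDC2 libraries, whose lists include the shortest, had 3 to 12.

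**Figure D1:**
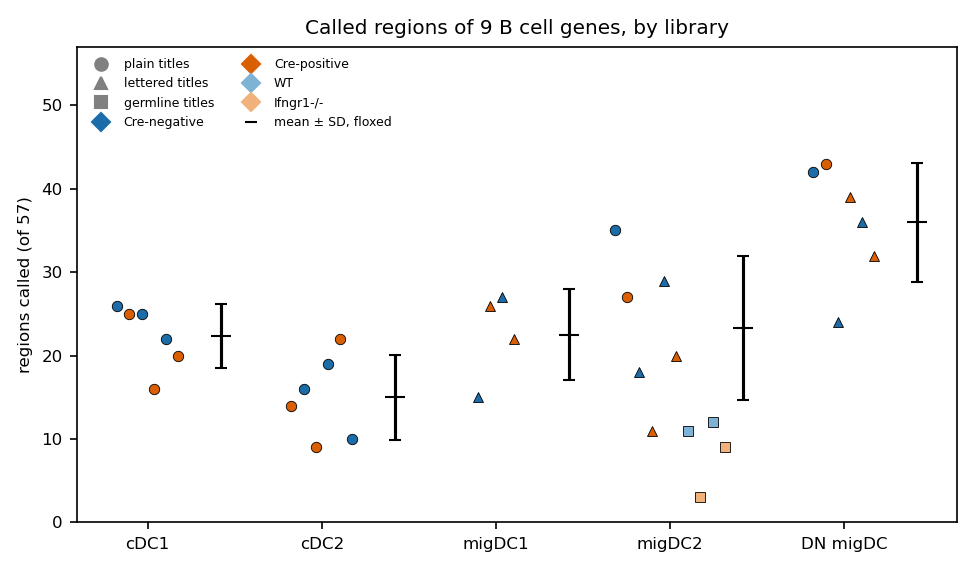
Number of the 57 regions of the 9 B cell genes that were called in each library (vertical axis), by cell type. Symbols give the title series, colours the genotype, and black bars the mean ± SD of the floxed libraries; 5 of 6 DN migDC libraries lie between 32 and 43, and 1 lies at 24.

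The share of all regions called did not differ in the same way. Over all 90465 regions DN migDC libraries had a mean of 64.03% ± 5.24 called (SD, n = 6) and migDC2 libraries 65.48% ± 5.64 (n = 6). Over the 57 regions the same libraries had 63.15% ± 12.5 and 40.95% ± 15.2. In cDC1 the members were at 39.2% ± 6.72 and all regions at 62.9% ± 6.89 (n = 6). By library the DN migDC share of member regions ran from 42.1% to 75.4%, and it was above the library's share of all regions in 3 of 6. DN migDC Cre-negative 2 was the lowest, at 42.1% of member regions against 59.9% of all regions.

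**Figure D2:**
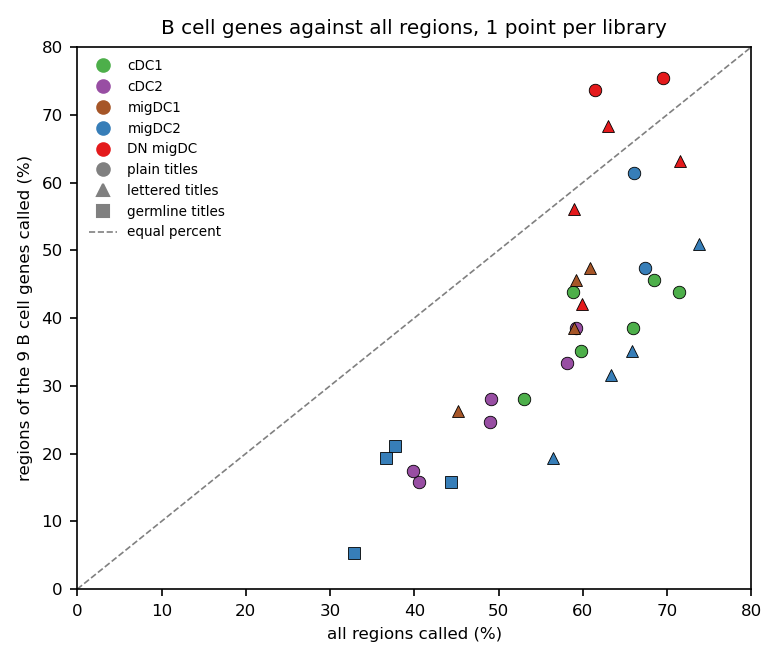
Percent of the 57 regions of the B cell genes (vertical axis) against percent of all 90465 regions (horizontal axis) called in each library, 1 point per library, with the line of equal percent. The 2 DN migDC libraries with plain titles and DN migDC Cre-positive 2 lie above the line, and all other libraries lie under it.

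The peaks were weak in every subset. Peaks of a library were ranked by the signal the authors deposited, and the position is given as a percent of the list, 0 being the strongest and 100 the weakest. In DN migDC the median position of the called member regions was 54.8% to 72.9% by library. It was 52.0% to 81.2% in floxed migDC2, 67.5% to 78.6% in migDC1, 69.4% to 76.6% in cDC1 and 61.8% to 76.4% in cDC2. Among the 18 regions called in all 6 DN migDC libraries the positions ran from 15.6% to 97.1% with a median of 50.1%, against 35.6% over all 43077 regions called in all 6.

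The transcription factor genes held most of the regions. Pax5 (chromosome 4, 44524748 to 44710694, mm10) had 20 regions, of which 14, 15, 8, 16, 15 and 13 were called in the 6 DN migDC libraries in the order above. The mean was 13.5 ± 2.88 (SD, n = 6) in DN migDC, 9.667 ± 2.88 in migDC2 (n = 6), 9.5 ± 2.38 in migDC1 (n = 4), 5.667 ± 1.63 in cDC1 (n = 6) and 2.5 ± 1.05 in cDC2 (n = 6). Pax5 was thus called at more regions in each migratory subset than in cDC2, and DN migDC overlapped with migDC2, whose libraries had 6 to 14.

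Within Pax5 the regions, numbered from low to high coordinate, fell into layers. Region 18 (44703975 to 44704854), inside the gene, was called in all 32 libraries, at a median position of 26.8% in DN migDC. Regions 10 (44614078 to 44614630) and 14 (44670340 to 44670794) were called in 6 of 6 DN migDC, 6 of 6 migDC2 and 4 and 3 of 4 migDC1 libraries, and in 1 and 0 of 12 resident libraries. Region 12 (44667446 to 44667931) was called in 5 of 6 DN migDC libraries, 2 of 6 migDC2 libraries, both with plain titles, and in no other library. Region 16 (44672658 to 44672905) was called in 5 of 6 DN migDC libraries and otherwise in 1 migDC2 library, with peaks at a median position of 92.0%. Regions 8 and 9 (44611534 to 44611904 and 44612465 to 44612697), named after their values were seen, were each called in 4 of 6 cDC1 libraries and in none of the other subsets.

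The Pax5 start itself (region 20, 44710647 to 44711080) was called in 4 of 6 DN migDC libraries. Positions were 49.1% and 51.3% in Cre-negative 1 and Cre-positive 1, the libraries with plain titles, and 84.6% and 97.2% in Cre-positive 2 and Cre-negative 3. Outside DN migDC it was called in migDC2 Cre-negative 1 at 80.3% and in cDC1 Cre-negative 2, and nowhere else.

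Ebf1 (chromosome 11, 44618100 to 45008096) had 11 regions, of which 8, 8, 4, 6, 6 and 4 were called in DN migDC. The mean of 6.0 ± 1.79 (SD, n = 6) stood beside 3.333 ± 1.97 in migDC2 (n = 6), 4.0 ± 1.67 in cDC1 (n = 6), 2.5 ± 0.577 in migDC1 (n = 4) and 1.667 ± 1.63 in cDC2 (n = 6). Both plain-titled DN migDC libraries exceeded every other library of the study at this gene. Intronic regions 5 (44624726 to 44624968) and 6 (44682105 to 44682356) were each called in 3 of 6 DN migDC libraries and in no other library. Region 7 (44765060 to 44765375) was called in 5 of 6 DN migDC libraries and in the 2 plain-titled migDC2 libraries. The region 112 bp inside the start (region 4, 44618212 to 44618566) was called in 3 of 6 DN migDC libraries, at 76.0%, 42.3% and 80.1%, and in 1 migDC2 and 1 cDC1 library. A different layer was region 8 (44894640 to 44895577), named after its values were seen, which was called in 6 of 6 cDC1 and 4 of 4 migDC1 libraries, in 1 DN migDC library and in neither cDC2 nor migDC2.

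Pou2af1 (chromosome 9, 51213690 to 51240079) had 3 regions, all with midpoints outside the gene body, with 3, 2, 3, 3, 2 and 2 called in DN migDC. Its start region (51213059 to 51214147) was called in 6 of 6 DN migDC and 6 of 6 cDC2 libraries, 3 of 6 cDC1, 2 of 6 migDC2 and 0 of 4 migDC1. Positions in DN migDC ran from 27.9% to 81.6%, the weakest in Cre-negative 2. Region 3, 2188 bp beyond the other end (51242104 to 51242431), was called in 6 of 6 DN migDC, 5 of 6 floxed migDC2 and 4 of 4 migDC1 libraries and in 0 of 12 resident and 0 of 4 germline migDC2 libraries.

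The receptor genes had few regions. Cd79a (chromosome 7, 24897497 to 24901858) had 1, at its start (24897203 to 24897697), called in 5 of 6 DN migDC libraries, 1 of 6 migDC2, 2 of 6 cDC1, 1 of 6 cDC2 and 0 of 4 migDC1. Its positions in DN migDC were 56.4%, 39.6%, 69.4%, 94.6% and 97.4%, and Cre-negative 2 had no peak. Cd79b (chromosome 11, 106311341 to 106314562) had a region at its upper gene end (106314298 to 106314723), called in 2 of 6 DN migDC libraries, both plain-titled, and in 1 cDC1 and 2 cDC2 libraries. Its other region (106308230 to 106308477) was called in 3 of 6 DN migDC libraries and in no other library. Which end of Cd79b, Ms4a1 or Blk is the start is not given in the annotation used here.

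Cd22, Ms4a1 and Bank1 did not have their highest mean in DN migDC. Cd22 (chromosome 7, 30865404 to 30880342) had 3.667 ± 0.516 of 4 regions called in DN migDC (SD, n = 6), 3.667 ± 0.516 in migDC2 and 3.667 ± 0.516 in cDC2 (n = 6 each), and 3.75 ± 0.5 in migDC1 (n = 4). Region 4 of Cd22 (30887342 to 30888292) was called in all 28 floxed libraries, and no region lay within 1000 bp of an end of the gene. Ms4a1 (chromosome 19, 11249679 to 11266149) had 1.833 ± 1.17 of 3 regions in DN migDC and 2.0 ± 0.0 in cDC1 (n = 6 each). Its upper end (11266077 to 11266787) was called in 6 of 6 cDC1, 4 of 6 cDC2 and 5 of 6 DN migDC libraries, against 2 of 6 migDC2, both plain-titled. Bank1 (chromosome 3, 136053363 to 136326141) had 1.5 ± 0.548 of 5 regions in DN migDC and 3.0 ± 1.1 in cDC1 (n = 6 each). The Bank1 start (136325733 to 136326383) was called in all resident, migDC2 and DN migDC libraries of the floxed mice and in 2 of 4 migDC1 libraries, and Bank1 regions 1 and 2 were called in 4 and 5 of 6 cDC1 libraries and in no other subset.

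Blk (chromosome 14, 63372837 to 63417187) had 8 regions, with 6, 7, 4, 6, 4 and 5 called in DN migDC. The mean was 5.333 ± 1.21 in DN migDC (SD, n = 6), 1.667 ± 1.63 in migDC2 (n = 6), 4.5 ± 1.29 in migDC1 (n = 4), 3.833 ± 0.753 in cDC1 (n = 6) and 2.0 ± 0.894 in cDC2 (n = 6). DN migDC, with 4 to 7, overlapped with migDC1 (3 to 6) and cDC1 (3 to 5) and met migDC2 (0 to 4) at 4. The cDC2 libraries had 1 to 3 and lay under all DN migDC libraries. Region 4 (63398951 to 63399309) was called in 6 of 6 DN migDC and 4 of 4 migDC1 libraries and in no migDC2 or resident library. Its median position was 84.2% in DN migDC and 69.0% in migDC1. The lower gene end (63372555 to 63372799) was called in 6 of 6 DN migDC, 3 of 6 migDC2, 1 of 4 migDC1 and 1 of 12 resident libraries. Region 7 (63413352 to 63414140) was called in all 12 resident and all 6 DN migDC libraries but in 2 of 6 migDC2 libraries. Its median position was 24.7% in cDC1, 48.4% in cDC2 and 69.1% in DN migDC. With every list shortened to its 38455 strongest peaks, DN migDC libraries had 1, 0, 0, 0, 0 and 0 Blk regions. The cDC1 and migDC1 libraries then had 1 or 2, cDC2 libraries 1 and migDC2 libraries 0, so DN migDC was no longer highest.

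**Figure D3:**
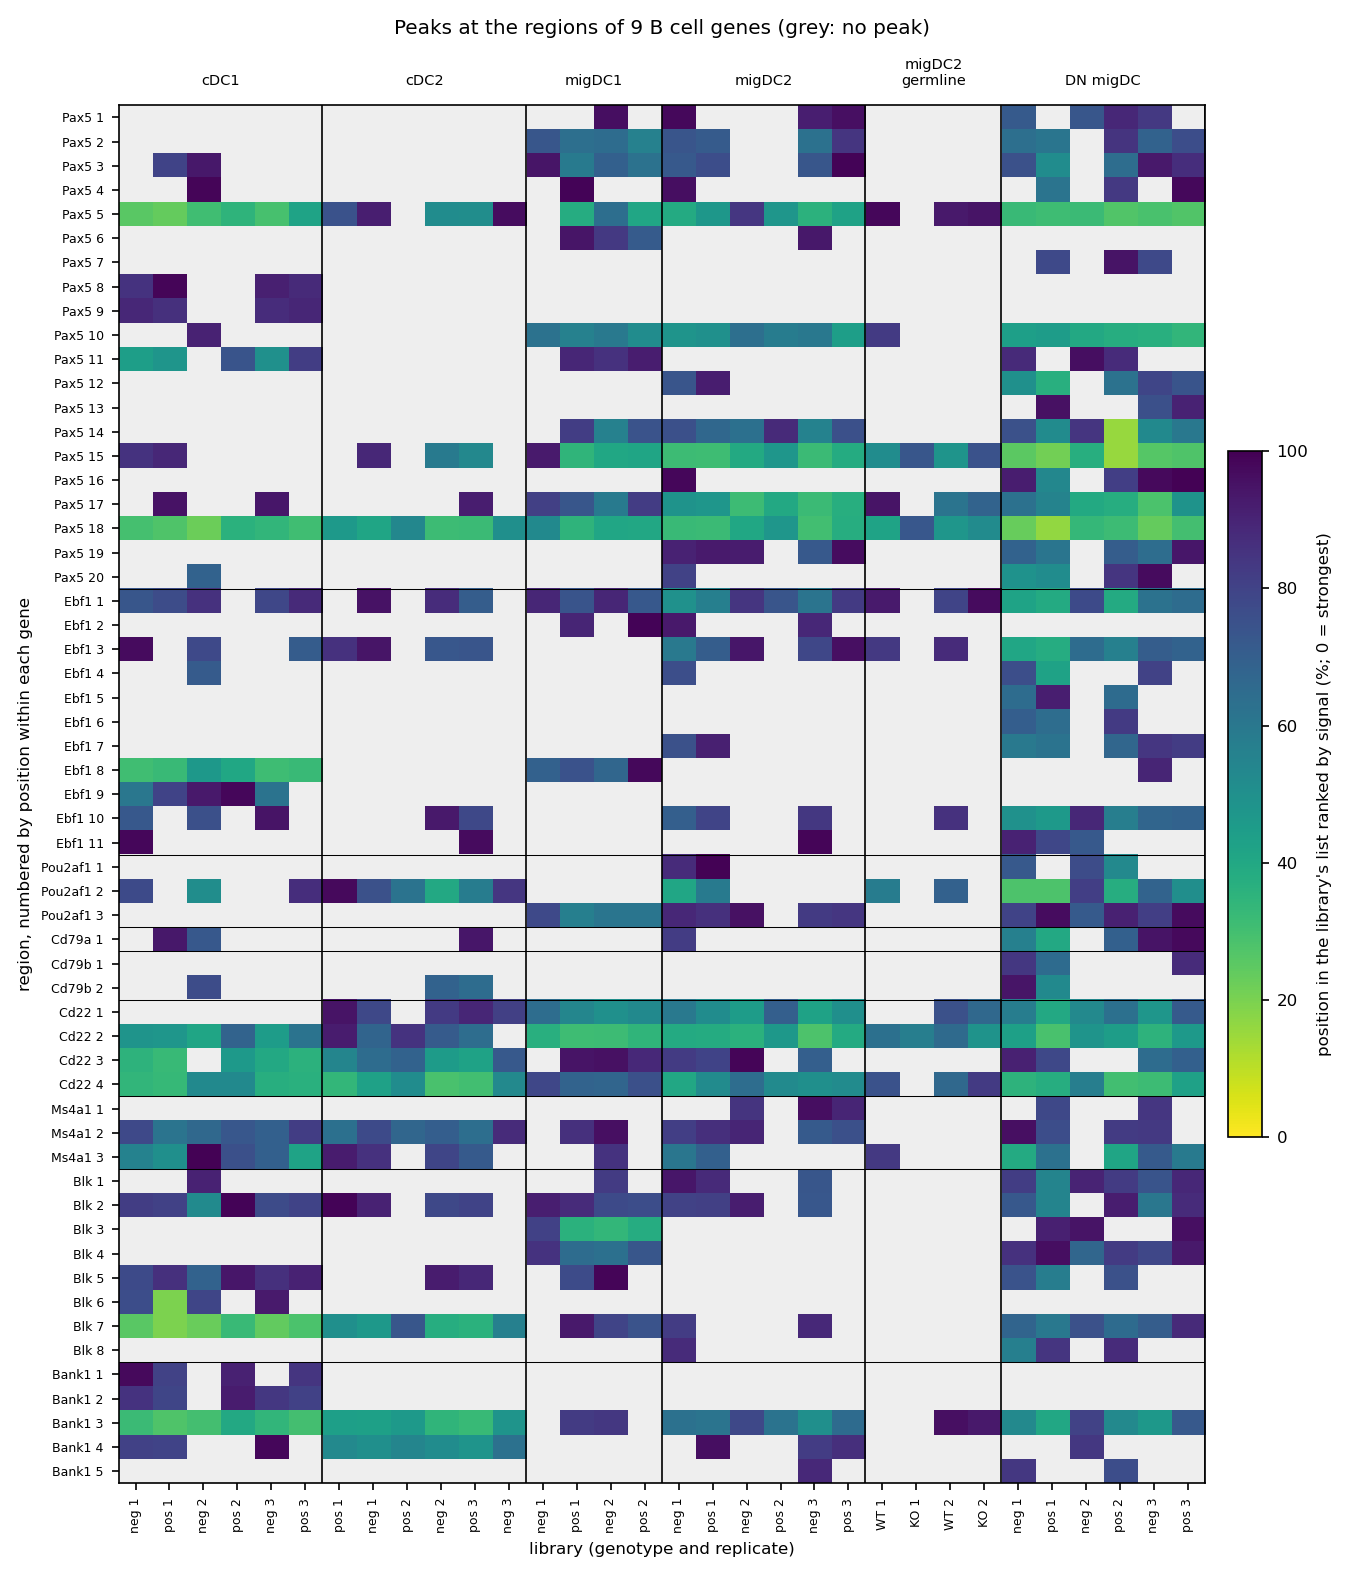
All 57 regions of the 9 genes (rows, numbered by position within each gene) in the 32 libraries (columns, by cell type; neg, Cre-negative; pos, Cre-positive; WT and KO, germline). Colour gives the position of the peak in its library's ranked list in percent, grey no peak; Pax5 region 18 is called in every library, and rows such as Pax5 12 and Ebf1 7 are called in DN migDC and the first 2 migDC2 libraries.

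Over all members, 18 regions (31.6%) were called in all 6 DN migDC libraries, against 47.6% of all regions, and 8 (14%) in none, against 17.9%. Regions called in DN migDC but in no other floxed library numbered 5 (8.77%), against 0.468% of all regions, and each of them was called in 3 of 6 libraries, the fewest that make a region. A region was counted as high in DN migDC when it was called in at least 5 of 6 of its libraries and in at most 1 of the comparison group. Against migDC2, 3 of 51 members (1 each of Pax5, Cd79a and Blk) met this, where 0.866% of 78250 regions did. Against the 12 resident libraries, 10 of 55 members met it, 6 of them in Pax5, where 8.2% of 87799 regions did. With lists of equal length the counts were 0 and 2, where 1.15% and 6.76% of all regions met the rule. Without migDC2 Cre-negative 1 or Cre-positive 1 the count against migDC2 was 8 or 7, where 1.18% or 1.17% of all regions did. These contrasts are the ones that chose the members, and nothing is read from them.

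Peaks at gene starts and ends were counted by library for the members only. The same count over all genes is not given here, so no background share stands beside these numbers. Of the 8 members with a region within 1000 bp of an end, DN migDC libraries had 8, 8, 3, 6, 7 and 5 called in the order above. In migDC2 the numbers were 7, 4, 1, 1, 2 and 1, the first 2 being the plain-titled libraries. Resident libraries had 2 to 5 except cDC1 Cre-negative 2, with 8, and migDC1 libraries had 0 to 3. The Pax5 start, the Ebf1 start, the Cd79a start and the Cd79b end were called together in DN migDC Cre-negative 1 and Cre-positive 1 and in cDC1 Cre-negative 2. DN migDC Cre-negative 2 had none of these 4, nor the Ms4a1 end, but kept the Pou2af1 start, the Bank1 start and the lower end of Blk.

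**Figure D4:**
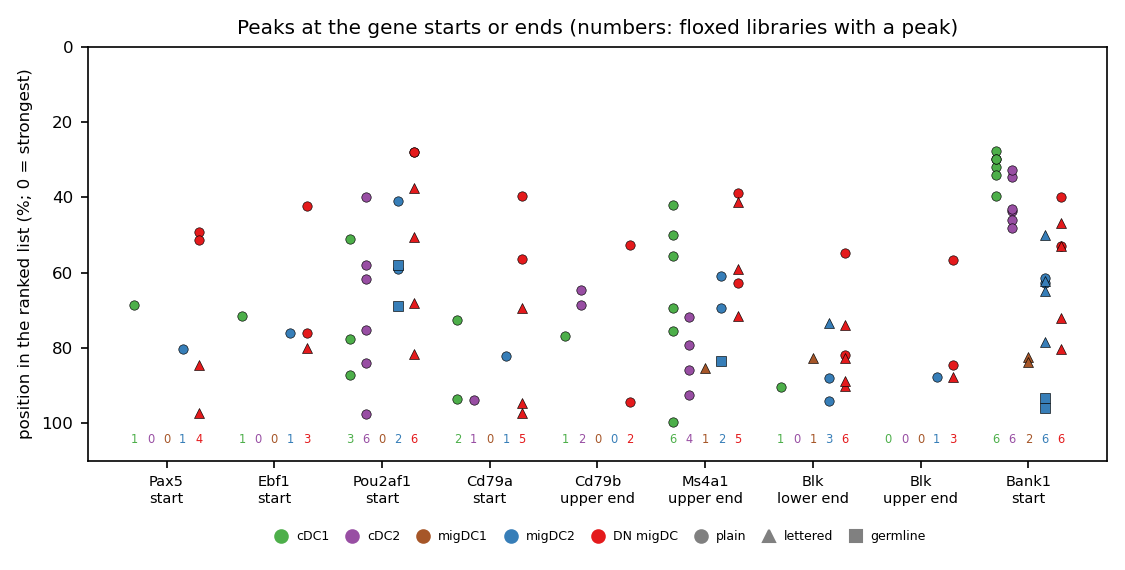
Position in the ranked list (vertical axis, percent, strongest at the top) of each peak called at the start or a gene end of 8 members, coloured by cell type, with symbols for the title series. Numbers along the bottom count the floxed libraries with a peak, in the order cDC1, cDC2, migDC1, migDC2 and DN migDC; Cd79a, for example, has 2, 1, 0, 1 and 5.

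Member regions that a single DN migDC library lacked were all lacked by the same one. There were 9 member regions called in exactly 5 of 6 DN migDC libraries, and DN migDC Cre-negative 2 was the missing library in all 9. Over all 6486 regions called in exactly 5 of 6, that library was the missing one for 36.1%, the highest share of the 6, followed by 23.9% for Cre-positive 1. These 9 regions were Pax5 regions 2, 3, 12, 16 and 19, Ebf1 region 7, the Cd79a start, the Ms4a1 upper end and Blk region 2. In migDC2 the plain-titled libraries had 9 and 7 of them and the lettered ones 2, 0, 4 and 3. In cDC1 the libraries had 2 to 4, in cDC2 0 to 3 and in migDC1 3 or 4. Where called in DN migDC, the 9 lay at a median position of 68.5%, against 75% for all regions called in exactly 5 of 6. DN migDC Cre-negative 2 had 60013 peaks, within the range of the other 5 (56959 to 74975).

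A resident library stood out in the opposite way, by having member regions that the other resident libraries mostly lacked. There were 7 member regions called in at least 3 DN migDC and in 1 or 2 of 12 resident libraries, and cDC1 Cre-negative 2 had 6 of the 7, where the next highest resident library had 1. Over the 2801 regions chosen by the same rule, cDC1 Cre-negative 2 held 23.5%, and cDC2 Cre-positive 3, with 34.3%, held the most. That cDC1 library had 19.4% of its peaks outside all regions, the highest share of the 32 libraries, where the other cDC1 libraries had 5.58% to 7.73%. DN migDC Cre-positive 1, with 16.2%, came next.

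Other B cell genes were counted in the same way. The list held 18 genes besides the members, of which 17 had 137 regions, and DN migDC libraries had 84 to 105 called (median 98.5), migDC2 libraries 75 to 99 (92.5), cDC1 66 to 94 (82.0), migDC1 55 to 81 (73.5) and cDC2 54 to 86 (68.0). The lowest DN migDC value was that of Cre-negative 2. As shares, DN migDC libraries had 61.3% to 76.6% of these regions called, where they had 58.9% to 71.5% of all regions. In migDC2 the shares were 54.7% to 72.3%, where 56.5% to 73.8% of all regions were called. The median share of the list was 71.9% in DN migDC, where the median of all regions was 62.2%. In migDC2 the medians were 67.5% and 65.95%. By median the list thus lay above all regions in DN migDC and near them in migDC2, while the ranges overlapped in both. DC are known to express several genes of the list, and Cd37, Cd72 and Spib each had a region called in all 32 libraries. Fcer2a, the gene of CD23, had 1 region, called in 6 of 6 migDC2 and 5 of 6 DN migDC libraries and in no cDC1, cDC2 or migDC1 library.

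Markers of other cells in the node were given the same count. Regions of 12 T cell genes were called at 38 to 51 of 69 in DN migDC and 38 to 48 in migDC2. Regions of plasmacytoid DC genes were called at 61 to 89 of 98 in DN migDC and 57 to 78 in migDC2, and those of 6 plasma cell genes at 21 to 28 of 40 and 22 to 32. The median share called in DN migDC was 63% for T cell, 71.9% for plasmacytoid DC and 57.5% for plasma cell genes. Of all regions the median was 62.2%. For migDC2 these medians were 63.8%, 64.8% and 63.8%, against 65.95% of all regions. T cell and plasma cell medians thus lay near or under that of all regions in both subsets. The plasmacytoid DC median lay above it in DN migDC. Cd3d, a chain of the T cell receptor complex, had its 1 region called in every floxed library, and Cd3g, another chain, had its 1 region called in 2 of 6 DN migDC and 2 of 4 migDC1 libraries and in no cDC1, cDC2 or migDC2 library. Whether a few B cells in the sorted fractions contribute to the peaks of the 9 genes was not tested, and the lists of peaks hold no value per cell.

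Between genotypes the members did not pass the test in either direction. Presence of a peak was compared between 14 Cre-positive and 14 Cre-negative libraries by an exact test within cell types, with Benjamini-Hochberg adjustment across all regions tested. Lettered titles carry the numbers 1 to 4, with the same genotype at each number, in migDC1, migDC2 and DN migDC. The labels do not say whether a number marks a shared animal, and the test takes libraries of different cell types as independent. It called 0 of 61445 regions (0.0%), with 170 at an unadjusted p under 0.05. Of the 57 member regions 52 could be tested, 0 were called, and 0 had an unadjusted p under 0.05. The smallest unadjusted exact p among them was 0.14, at Pax5 region 1, called in 2 of 14 Cre-positive and 6 of 14 Cre-negative libraries. The number of called regions per gene, permuted in the same way, differed for 3 of 13861 genes (0.0216%) and for 0 of the 9 members, which all had an adjusted p of 1.0. The 3 genes were Itgax and Itgad, neighbouring integrin genes with more regions in Cre-positive libraries, and Mid1, with fewer. The count fell to 0 when the strata also held the title series. Cre-positive and Cre-negative mice differ in the Cre driven by the CD11c promoter as well as in Ifngr1, and these cannot be told apart here. Pax5 had 8.14 ± 4.79 regions in Cre-positive and 8.0 ± 4.31 in Cre-negative libraries (SD, n = 14 each; exact permutation p = 0.937), and Ebf1 had 3.14 ± 2.07 and 4.0 ± 2.25 (exact permutation p = 0.211).

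In DN migDC alone the Cre-negative libraries had 42, 24 and 36 member regions and the Cre-positive ones 43, 39 and 32, so the ranges overlapped. Both of the DN migDC libraries with all 8 starts or ends, Cre-negative 1 and Cre-positive 1, differed in genotype and shared the title series. In germline migDC2 the wild-type libraries had 11 and 12 member regions and the IFNgr1-/- libraries 3 and 9. Of all regions the wild-type libraries had 36.7% and 37.7% called and the IFNgr1-/- libraries 32.8% and 44.3%. The library with 3 had the shortest list of the series, 32649 peaks. This difference was not tested.

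The title series was compared in DN migDC and migDC2, the subsets that have both kinds of title, with 4 plain against 8 lettered libraries. The exact test within cell types can reach no p under 0.00444 here, and it called 0 of 22285 regions (0.0%), with 2020 at an unadjusted p under 0.05 and a smallest adjusted p of 0.0892. Members tested were 33, of which 0 were called and 3 had an unadjusted p under 0.05. The 3 were Pax5 region 12, Ebf1 region 7 and the Ms4a1 upper end, each called in 4 of 4 plain and 3 of 8 lettered libraries (exact p = 0.0444, adjusted p = 0.49). Among the 33 members 24 were called in a larger share of plain libraries (72.7%) and 3 in a smaller one, with a median difference of 37.5 percentage points, where 43.0% of all tested regions were called in a larger share and the median difference was 0.0.

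Of 11604 genes, 0 (0.0%) differed between title series after adjustment, with 936 at an unadjusted p under 0.05. The exact permutation of genes has the same floor, 0.00444. Ebf1 had 6.5 ± 1.91 regions called in plain (SD, n = 4) and 3.75 ± 1.91 in lettered libraries (n = 8; exact permutation p = 0.0178, adjusted p = 0.341). Blk had 4.75 ± 2.22 and 2.88 ± 2.3 (exact permutation p = 0.0489, adjusted p = 0.606). Pax5 had 13.2 ± 2.22 and 10.8 ± 3.69 (exact permutation p = 0.191, adjusted p = 1.0). Within the lettered libraries alone, DN migDC had 32.75 ± 6.5 member regions (SD, n = 4) and migDC2 19.5 ± 7.42 (n = 4), and within the plain ones 42.5 ± 0.707 and 31.0 ± 5.66 (n = 2 each).

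With every list shortened to its 38455 strongest peaks, the length of the shortest floxed list, the mean number of member regions fell in every subset. The share of all regions called in the shortened lists is not given here, so this fall has no background beside it. DN migDC libraries then had 8 to 21 member regions, with a mean of 13.5 ± 4.76 (SD, n = 6), migDC2 8.67 ± 2.34 (n = 6), migDC1 10.2 ± 0.5 (n = 4), and cDC1 and cDC2 9.83 ± 0.983 and 9.83 ± 1.33 (n = 6 each). Starts or ends of 0 to 6 members remained in DN migDC, 0 to 2 in migDC2, 1 to 3 in resident libraries and 0 in migDC1.

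**Figure D5:**
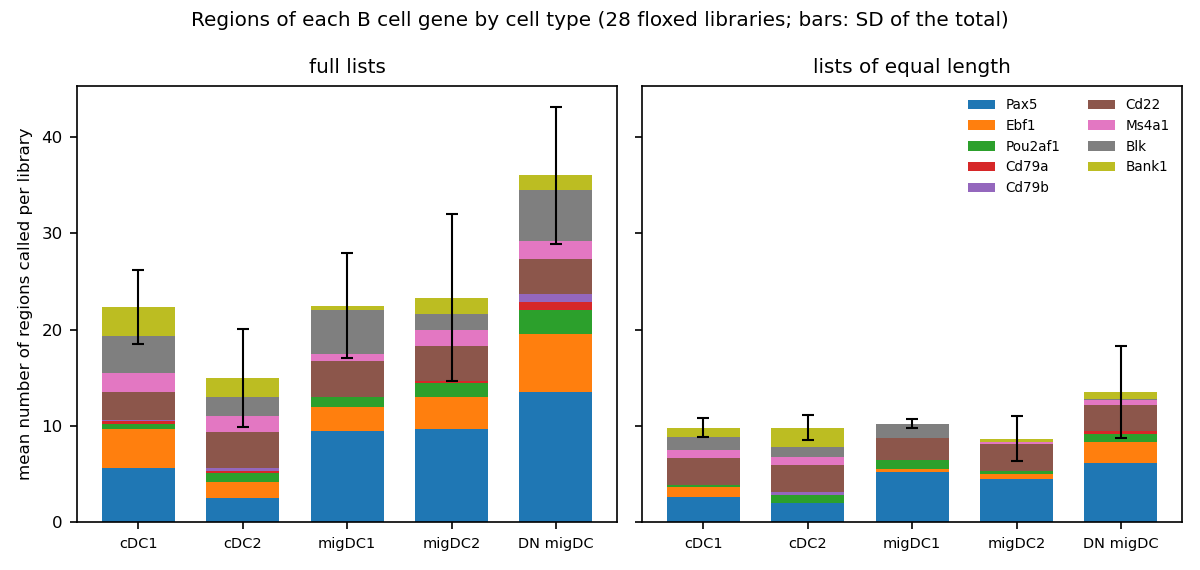
Mean number of regions called per library for each of the 9 genes (stacked colours), by cell type, with the full lists (left) and with lists of equal length (right); black bars give the SD of the total over 6 libraries (4 for migDC1). DN migDC has the highest mean in both, 36.0 and 13.5, and on the right its SD reaches into the range of the other subsets.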

How the data were processed

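Omni-ATAC-seq peaks of sorted mouse DC were deposited as 1 list per library. Per the submitters' processing notes, the tools were Bowtie2, deepTools and Genrich on mm10. The versions, settings and any shift of read ends were not given in the sources used here. Each peak has a signal, deposited by the authors, whose minimum is just above 200.0; it served only to rank peaks within a list, with the deposited −log10 p breaking ties. Depth is unknown, and no interval can be given.

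Only autosomes and X were kept. A region was called when a peak overlapped at least 50% of it or of the peak, and it was assigned by its midpoint to RefSeq genes of GRCm38.p6. Testing was limited to regions with 3 or more calls and 3 or more non-calls in a comparison, at an adjusted p of 0.05 (Python 3.11.15, numpy 2.4.6, scipy 1.17.1, pandas 2.3.3); the tests were checked on simulated calls. The 9 genes, the marker lists and the tests were chosen with earlier results of these data known. Named regions are the start or gene-end regions, up to 4 others per gene with the largest excess in DN migDC over resident libraries, and those stated to be named afterwards, as were Pax5 regions 2, 3, 18 and 19. 1 gene of the marker lists is not reported here by name.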

Additional observations from a re-analysis of the deposited data

Results flagged for a closer look

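In cDC1, Cre-negative 2 had peaks at the start or an end of 8 of the 8 members that have such a region, where the other 5 cDC1 libraries had 2 or 3. The gap exceeds Dixon's 95% critical value for 6 samples. Of 18 sets of values examined, 1 was singled out, and about 1 in 20 is expected by chance.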

How the results depend on the processing

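No paired analysis was possible because the labels give no replicate number that Cre-negative and Cre-positive libraries share. The mean difference in member regions per library, main value 12.67 for DN migDC minus migDC2 and 17.33 for DN migDC minus resident, fell to 4.833 and 3.667 at equal list length, where fewer weak peaks remain. Leaving out single libraries gave 10.2 to 15.07 and 15.93 to 19.73. Member regions high in DN migDC against migDC2 numbered 3, and 0 at equal list length, 1 with a signal of at least 400, 7 with plain titles only, 10 with lettered titles only and 3 to 8 without single libraries; the highest values came without migDC2 Cre-negative 1 (8) and Cre-positive 1 (7). The shares of all regions were 0.867%, 1.15%, 0.607%, 1.99%, 3.34% and 0.883% to 1.45% in this order. Against resident libraries they numbered 10, and 2 at equal list length, 6 with the stricter signal, 16 with plain titles only and 10 to 12 without single libraries, with shares of all regions of 8.2%, 6.76%, 7.93%, 8.87% and 8.2% to 9.15%. In the 2-library groups of plain titles, high means called in both DN migDC libraries and in neither migDC2 library. The 3 genes that differed between genotypes over all genes fell to 0 within cell type and title series, with plain titles only and with lettered titles only, and stayed at 3 without any single library. Counts of members called between genotypes and between title series stayed at 0 under every alternative run. Between title series no p under 0.00444 can be reached with all libraries, so a call after adjustment needs many regions at that floor. Nothing is read from that 0. Lettered titles hold no resident library, so that comparison has no value. Where not explained above, the cause was not tested.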

Other observations

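Genes outside the list were ranked by how closely their share of called regions, less the share of all regions, followed that of the 9 genes over the 28 floxed libraries, among 9380 genes with at least 3 regions. The closest was Bhlhe41, a transcription factor gene (Pearson r = 0.8512), with a median of 6.0 of 7 regions called in DN migDC, 2.0 in migDC2, migDC1 and cDC2 and 3.0 in cDC1. It was followed by Nr3c2, the mineralocorticoid receptor (0.8136), Bend5 (0.8107), Ackr3, an atypical chemokine receptor (0.7838), and Cadps (0.7834). Bend5 had a median of 2.5 of 3 regions in DN migDC and 0.0 in the other 4 subsets. These values come from the same libraries and lists, share their length, and are given without a test.

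Immunoglobulin loci had regions in every subset. Igkc region 1 (chromosome 6, 70709382 to 70709665), named after its values were seen, was called in 6 of 6 DN migDC, 2 of 6 migDC2, 0 of 4 migDC1 and 3 of 12 resident libraries. Of the 7 Igkc regions, regions 3, 4, 6 and 7 were each called in all DN migDC, floxed migDC2 and migDC1 libraries. Region 3 of Fcrla (chromosome 1, 170928499 to 170928941), named after its values were seen, was called in 6 of 6 DN migDC, 2 of 6 migDC2, 0 of 4 migDC1 and 5 of 12 resident libraries.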
